A study of Mus musculus with 10 samples.

Results

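The 10 genes described here are the transcription factor genes of the hypoxia response (Hif1a, Epas1 and Arnt), the genes of its oxygen-sensing machinery (Vhl, Egln1 and Egln3) and direct targets of the pathway (Car9, Bnip3, Ankrd37 and Adm). They were picked by symbol from the deposited table of 18223 genes, in which all 10 were found, and all 10 passed the filter on low counts. RNA was sequenced from whole subcutaneous tumours of MC38, a mouse colon adenocarcinoma line, in 10 libraries. The 5 libraries of high tumour burden (HTB) carry the label of 2000000 and the 5 of low tumour burden (LTB) that of 500000, both for 14 days, which is read here as MC38 cells injected and days of growth. The labels give no mouse strain, age, drug or measured tumour size, and do not say whether each library is a separate animal, so the p-values measure the spread between these libraries.

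Cells sense oxygen through the stability of the HIF alpha subunits. In the presence of oxygen, prolyl hydroxylases of the EGLN family mark HIF alpha, and the VHL ubiquitin ligase then sends it for degradation. When oxygen is short, the alpha subunit accumulates, pairs with ARNT and binds a short DNA core in target genes, the hypoxia response element. In solid tumours this programme is known for glycolysis, acid export, vessel growth and mitophagy, and it also operates in macrophages. HIF alpha is controlled mainly at the protein level, which RNA-seq does not measure.

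Levels are given in CPM, counts per 1000000 reads on TMM-scaled library totals. Before scaling, the totals ran from 23070917 to 27185168 reads. HTB replicate 2 stood apart from the other libraries in transcripts of muscle and fat, as detailed with Epas1, and results that rest on it are also given without it. Within LTB, replicate 1 stood apart too, though less. The mean chi-square per gene between 2 libraries grows as their counts differ. It was 52.8 to 81.8 for LTB pairs with replicate 1 and 13.6 to 28.4 for the other LTB pairs. HTB pairs with replicate 2 had 153 to 203 and the other HTB pairs 10.6 to 31.9. Of the epithelial markers of a colon carcinoma, Krt8, Krt18, Krt19 and Cldn7 were near 0 and too low to test. Cdh1 was low, at a mean of 8.90 CPM in LTB and 3.45 CPM in HTB (log2 fold change -1.36, edgeR adjusted p = 0.0332), a call lost without HTB replicate 1, 3 or 4 or LTB replicate 1, 4 or 5. Epcam, at 0.999 and 0.536 CPM, did not pass (edgeR adjusted p = 0.295).

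In HTB tumours 5 of the 10 genes were lower and 0 were higher than in LTB tumours. Egln3 and Car9 fell the most, to 22.5% and 21.8% of their LTB levels, followed by Ankrd37 (34.4%), Egln1 (64.6%) and Hif1a (78.1%). Bnip3 stood at 45.5% but narrowly missed the threshold, and Epas1, Arnt, Vhl and Adm did not pass. Genes were tested with edgeR's quasi-likelihood test, and passed at an adjusted p (Benjamini-Hochberg, over all 13469 genes tested) under 0.05. By that rule 11.4% of all genes tested passed, 7.51% lower in HTB and 3.91% higher. Group means are given with ± SD over the 5 libraries and log2 fold changes with ± SE of the fit. At an unadjusted p under 0.05, 6 of the 10 genes were lower and 0 higher, where 2046 and 1868 of all 13469 genes tested were. The same background holds for the unadjusted counts of the further lists. DESeq2 and limma voom each called 6 of the 10 genes lower and 0 higher. Of all genes, DESeq2 called 1426 lower and 1084 higher, where edgeR called 1011 and 526. The DESeq2 counts of the further lists have that background too. The count of all genes by limma voom is not given here. Without HTB replicate 3 the count by edgeR was 3 lower (Egln1, Egln3 and Car9). The median log2 fold change of the 10 genes was -0.49, against 0.02 over all genes tested. Whole tumours hold tumour cells, immune cells and stroma, so fewer cells of a type and less RNA per cell cannot be told apart.

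**Figure D1:**
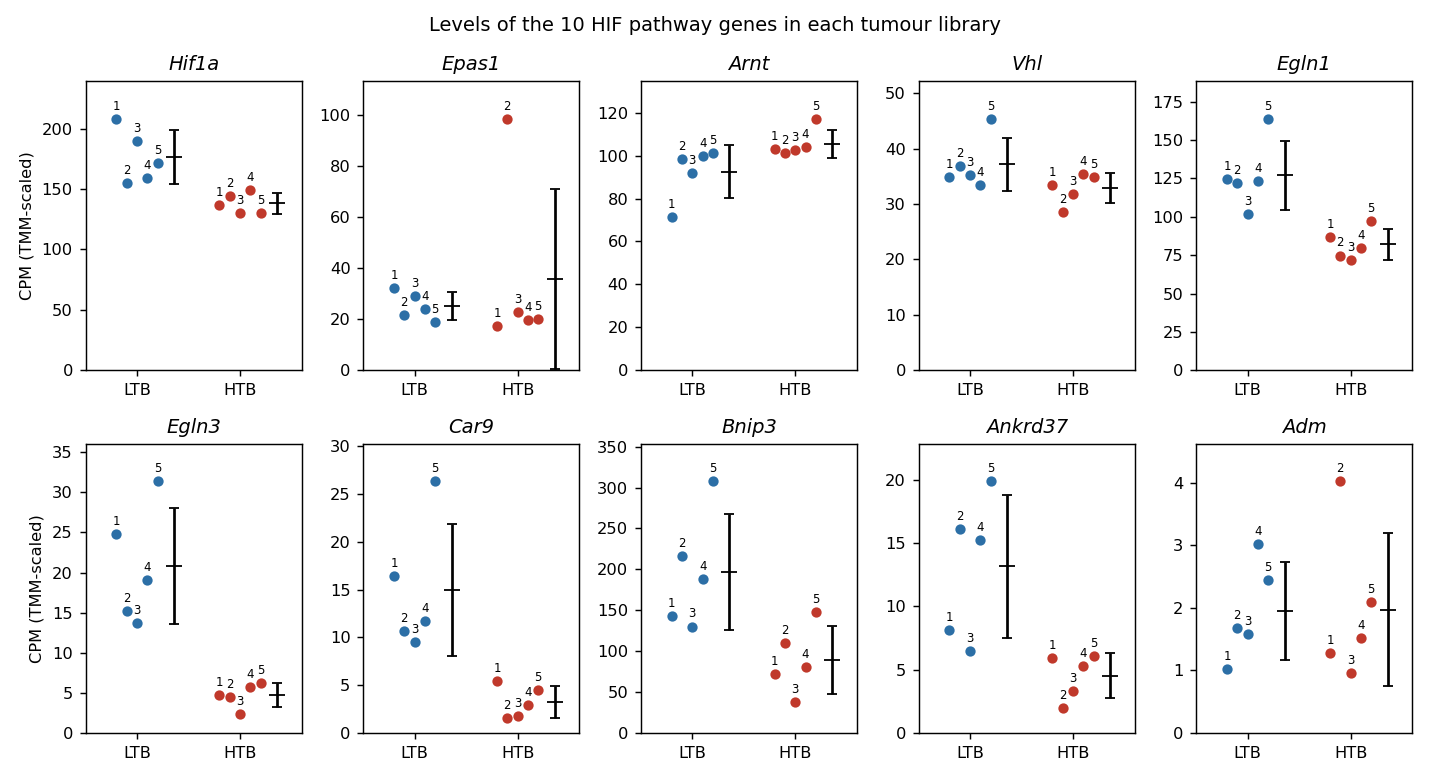
CPM (linear axis from 0) of each gene in the 5 LTB (blue) and 5 HTB (red) libraries, with replicate numbers, and the group mean with its SD as a black bar. The groups are separate for Hif1a, Egln1, Egln3, Car9 and Ankrd37, and the single high point of Epas1 is HTB replicate 2 at 98.6 CPM.

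Hif1a (NCBI gene 15251) encodes the broadly expressed, oxygen-regulated alpha subunit. Hif1a was at 137, 144, 130.1, 149.6 and 129.9 CPM in HTB replicates 1 to 5 and at 208, 155, 189.8, 159 and 172 in LTB replicates 1 to 5. Every HTB library lay below every LTB library, and LTB replicates 1 and 3 were the highest. HTB averaged 138 ± 8.65 CPM and LTB 177 ± 22.2 CPM, which the edgeR fit gave as -0.36 ± 0.09 on the log2 scale (adjusted p = 0.0278). The call was lost without HTB replicate 1 (edgeR adjusted p = 0.0555), 3 (0.0745) or 5 (0.0654) and without LTB replicate 3 (0.0662), and over the alternatives the adjusted p ranged from 0.00275 to 0.0854. The fold change itself stayed between -0.40 and -0.29. The antisense gene Gm15283 shares 5.6% of the exon bases of Hif1a, and the protein-coding gene Gm49321 on the same strand shares 2.5%.

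Epas1 (13819) encodes the second alpha subunit, HIF-2 alpha, known for its expression in endothelium, fat and some macrophages. Its level was 17.3, 98.6, 22.8, 19.5 and 19.9 CPM in HTB replicates 1 to 5 and 32.3, 21.7, 28.9, 23.9 and 18.8 CPM in LTB. HTB replicate 2 stood far above all others, and the remaining HTB libraries overlapped with LTB. The log2 fold change was 0.50 ± 0.48 (edgeR adjusted p = 0.514), with a 95% interval from -0.55 to 1.55. Without HTB replicate 2 its sign turned, to -0.34 ± 0.15 (edgeR adjusted p = 0.134, within a range of 0.134 to 0.904 over the alternatives that gave a value).

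HTB replicate 2 also differed in transcripts of tissues around a subcutaneous tumour. The 5 adipocyte markers (Adipoq, Plin1, Cfd, Lep and Cidec) summed to 3146 CPM in it and to at most 11.7 CPM in every other library. The 6 skeletal muscle markers summed to 13202 CPM there. The remaining HTB libraries had 7.36 to 48.0 CPM and the LTB libraries 4.01 to 5.91 CPM, with no overlap. Of the 4 that were tested, 3 passed as higher in HTB by edgeR, where 3.91% of all genes did. Without HTB replicate 2, Acta1 (4.07 ± 1.09, edgeR adjusted p = 0.0255) and Tnnt3 (1.72 ± 0.31, adjusted p = 0.00557) still passed as higher. In that fit 9.77% of all genes were higher, and Atp2a1 (adjusted p = 0.0509) and Mylpf (0.163) did not pass. The 10 endothelial markers summed to 388 CPM in HTB replicate 2, where the remaining HTB libraries had 123 to 142 CPM and the LTB libraries 103 to 152 CPM. None of the 10 endothelial markers passed edgeR's test in either direction. At an unadjusted p under 0.05, 4 were higher and 0 lower, where 1868 and 2046 of all 13469 genes tested were. DESeq2 called 2 higher and limma voom 0. Without HTB replicate 2 the endothelial receptor gene Tek passed as higher (0.88 ± 0.26, edgeR adjusted p = 0.0369). The part of these tissues in the Epas1 value was not tested.

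**Figure D2:**
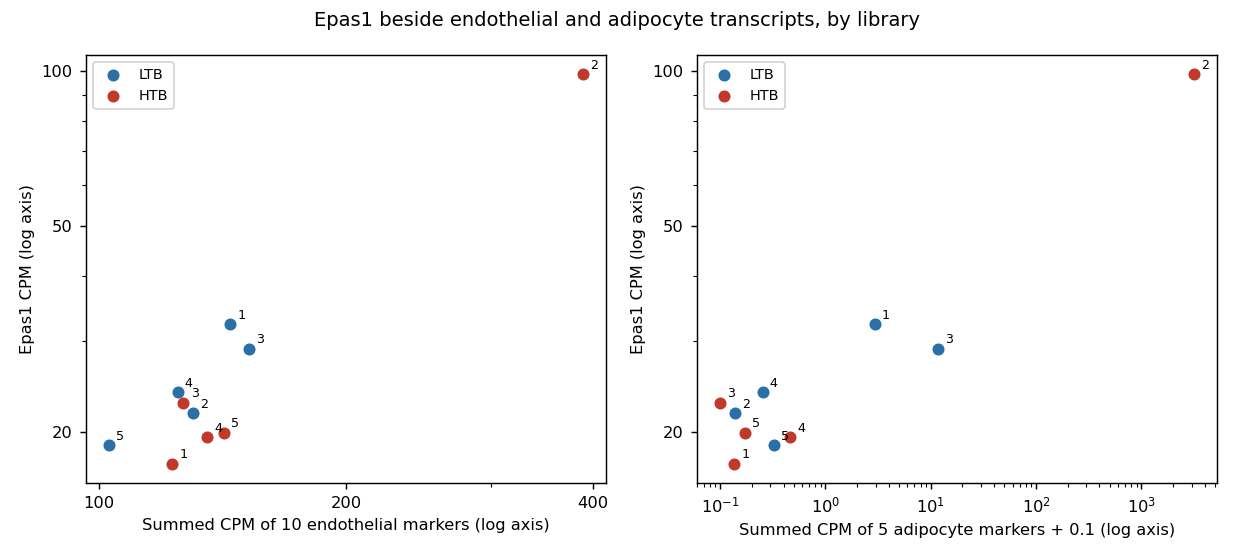
Epas1 CPM (log axis) in each library against the summed CPM of 10 endothelial markers (left, log axis) and of 5 adipocyte markers with 0.1 CPM added (right, log axis), with replicate numbers, LTB in blue and HTB in red. HTB replicate 2 is highest on every axis (98.6 CPM of Epas1, 388 CPM of endothelial and 3146 CPM of adipocyte markers).

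Set within each library against the endothelial marker sum, Epas1 gave no difference that passed. The log2 ratio of Epas1 to that sum was -2.58 ± 0.37 in HTB and -2.40 ± 0.15 in LTB (± SD), a difference of -0.19 (exact two-sided permutation test, p = 0.333, adjusted p = 0.389 over the 2 ratios tested). HTB replicate 2 had the highest ratio of all libraries, at -1.98, and LTB replicate 1 the next, at -2.16. Without HTB replicate 2 the difference was -0.34, with an exact permutation p of 0.0317 before adjustment, in a range of 0.0317 to 0.579 over the alternatives, and an adjusted p of 0.0635 over the 2 ratios. In that setting HTB lay at -2.84 to -2.48 and LTB at -2.58 to -2.16. The log2 ratio of Epas1 to Hif1a was -2.34 ± 1.02 in HTB and -2.83 ± 0.21 in LTB, a difference of 0.50 (exact permutation p = 0.389), and 0.05 without HTB replicate 2.

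Arnt (11863) encodes the constant partner of both alpha subunits. Its HTB libraries had 103, 101, 102, 104 and 117 CPM and its LTB libraries 71.2, 98.6, 91.9, 100.03 and 101 CPM. LTB replicate 1, the library highest in Hif1a, was the lowest in Arnt, and the groups overlapped at their edges by less than 1 CPM. HTB stood higher by 0.19 ± 0.10 on the log2 scale (edgeR adjusted p = 0.216), with a 95% interval from -0.02 to 0.40.

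Compared per length of exon, Hif1a was the most abundant of the 3 factor transcripts in the mean of either group. Its level per kilobase was 23.4 CPM in HTB and 30.0 in LTB, against 13.2 and 11.6 for Arnt and 6.37 and 4.50 for Epas1. Epas1 stood at 3.56 in HTB without replicate 2. The ratio of Hif1a to Arnt per kilobase ran from 1.5 to 1.95 in HTB and from 2.14 to 3.97 in LTB, with no overlap. That ratio was chosen after the values were seen and is given without a test.

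Vhl (22346), the substrate receptor of the ubiquitin ligase that removes hydroxylated HIF alpha, was at 33.5, 28.6, 31.7, 35.4 and 34.9 CPM in HTB and at 34.8, 36.8, 35.2, 33.5 and 45.4 CPM in LTB. The groups overlapped, and LTB replicate 5 stood above the rest. The fitted log2 fold change came to -0.18 ± 0.09 (edgeR adjusted p = 0.243, 95% interval -0.39 to 0.03).

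Egln1 (112405) encodes the main HIF prolyl hydroxylase of most tissues and is itself induced by hypoxia. It was measured at 86.9, 74.8, 71.6, 79.8 and 97.2 CPM in HTB and at 125, 122, 102, 123 and 164 CPM in LTB. All HTB libraries were below all LTB libraries, with LTB replicate 5 the highest. Egln1 fell by 0.63 ± 0.12 on the log2 scale (edgeR adjusted p = 0.0118), and it passed in all 19 alternatives, with an adjusted p of at most 0.0372.

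Egln3 (112407), the hydroxylase gene with the strongest known response to hypoxia, separated the groups further. HTB libraries had 4.735, 4.44, 2.34, 5.69 and 6.19 CPM, from 64 to 169 reads, and LTB libraries 24.8, 15.3, 13.7, 19.1 and 31.4 CPM, from 320 to 705 reads. The highest HTB value was below the lowest LTB value, and HTB replicate 3 was the lowest of all. The fall was 4.44-fold, a log2 fold change of -2.15 ± 0.29 (edgeR adjusted p = 0.00251), and it passed in all 19 alternatives.

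The third family member, Egln2, is not hypoxia-induced and did not pass, at 44.2 ± 3.73 CPM in HTB and 40.7 ± 2.53 CPM in LTB (0.12 ± 0.07 on the log2 scale, edgeR adjusted p = 0.296). Summed per kilobase of exon, the 3 hydroxylase transcripts came to between 37.3 and 45.5 CPM (HTB) and between 47.4 and 70.9 CPM (LTB). Egln3 made up 4.31% ± 1.22 of that sum in HTB and 13.3% ± 2.88 in LTB, while the share of Egln2 was 39.3% ± 4.35 and 25.6% ± 4.07. The ratio of Egln3 to Egln1 CPM was 0.0327 to 0.0713 in HTB and 0.125 to 0.199 in LTB. The shares and the ratio are formed within a library from the levels of the genes above. They add no separate finding and are given as a description, with no test.

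**Figure D3:**
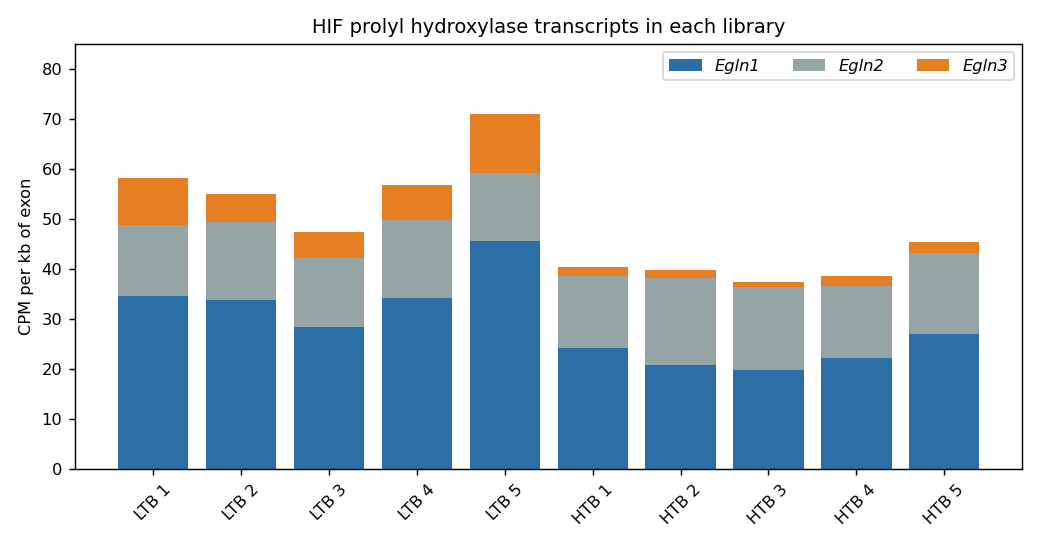
Stacked bars of Egln1, Egln2 and Egln3 in each library, as CPM per kilobase of exon (linear axis from 0). The Egln3 layer is 10.4% to 16.6% of the bar in LTB and 2.36% to 5.52% in HTB, while Egln2 did not pass.

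The direct targets come next, and their promoters are shown because the pathway acts on them through its core sequence. The windows are the 250 bases before the RefSeq start of 3 targets in GRCm38.p6, written 5′ to 3′ on the strand of the gene in lower case, with capitals marking each ACGTG or GCGTG core on either strand (read as CACGT or CACGC when on the other strand).
Car9, chr4:43506776-43507025, plus strand: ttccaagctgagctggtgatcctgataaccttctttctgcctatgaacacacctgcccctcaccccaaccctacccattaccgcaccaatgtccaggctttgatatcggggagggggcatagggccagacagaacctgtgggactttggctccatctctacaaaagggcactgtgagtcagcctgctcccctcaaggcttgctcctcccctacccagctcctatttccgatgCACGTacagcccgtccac
Bnip3, chr7:138909507-138909756, minus strand: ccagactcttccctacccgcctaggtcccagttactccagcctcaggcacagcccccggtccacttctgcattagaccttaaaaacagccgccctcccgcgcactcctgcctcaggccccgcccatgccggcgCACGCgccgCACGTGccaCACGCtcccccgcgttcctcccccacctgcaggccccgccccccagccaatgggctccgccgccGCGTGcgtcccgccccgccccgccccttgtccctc
Ankrd37, chr8:45999851-46000100, minus strand: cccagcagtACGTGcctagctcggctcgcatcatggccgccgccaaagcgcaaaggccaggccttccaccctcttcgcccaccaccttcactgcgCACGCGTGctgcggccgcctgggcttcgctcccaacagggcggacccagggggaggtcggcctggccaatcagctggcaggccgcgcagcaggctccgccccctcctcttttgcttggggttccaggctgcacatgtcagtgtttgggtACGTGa
The single core of Car9 is centred 16 bases before the start. The window of Bnip3 holds 5 cores, of which 2 overlap in the palindrome CACGTG, read on both strands, and that of Ankrd37 holds 4, with 1 overlapping pair and a core centred 4 bases before the start. The Ankrd37 window lies inside the span that the deposited table gives for that gene.

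Of the 9 genes with a RefSeq promoter (Epas1 had no entry), 8 held a core in the 250 bases before the start. Vhl held 0, Egln3 and Arnt 1 each, Egln1 and Adm 2 each and Hif1a 3. For Hif1a, Egln3 and Adm the bases after the RefSeq start were not found in any GENCODE M21 transcript of the gene. The windows of Hif1a and Adm also lie inside the spans that the deposited table gives for them. Their core counts hold for these windows only. A core of either kind is common: 49.2% of the 17521 promoter windows of genes in the table held at least 1, and 19.3% held ACGTG. By gene, 54.0% of 13956 genes held a core. A match is a description of the letters only and was not set against the expression values.

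Car9 (230099) encodes carbonic anhydrase IX, a membrane enzyme that acidifies the space around hypoxic tumour cells. It was at 5.46, 1.58, 1.72, 2.90 and 4.54 CPM in HTB, from 38 to 150 reads, and at 16.5, 10.6, 9.49, 11.7 and 26.3 CPM in LTB, from 222 to 592 reads. The groups did not overlap, HTB replicates 2 and 3 were the lowest and LTB replicate 5 the highest. Car9 fell 4.59-fold, a log2 fold change of -2.20 ± 0.41 (edgeR adjusted p = 0.00911), and Car9 passed in all 19 alternatives with fold changes from -2.47 to -1.89. The antisense gene Gm12454 covers 9.3% of its exon bases.

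Ankrd37 (654824) encodes a small ankyrin repeat protein and is a known HIF target. Its values were 5.94, 1.99, 3.33, 5.29 and 6.04 CPM in HTB and 8.14, 16.1, 6.5, 15.2 and 19.9 CPM in LTB. The highest HTB library, replicate 5, was just below the lowest LTB library, replicate 3. The fall was 2.91-fold (log2 -1.54 ± 0.37, edgeR adjusted p = 0.0265). The call was lost without HTB replicate 3 (adjusted p = 0.0711) or 4 (0.0580) and without LTB replicate 2 (0.0526), 4 (0.0540) or 5 (0.0603), within a range of 7.26e-04 to 0.0711. Ankrd37 shares 22.7% of its exon bases with Lrp2bp and 3.7% with Ufsp2 on the opposite strand, and counts that do not use strand cannot tell these genes apart.

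Bnip3 (12176), a mitochondrial outer membrane protein that recruits the autophagy machinery and interacts with BCL2 proteins, had the highest mean per kilobase of the 10 genes in either group, although its lowest HTB library, at 16.9, lay below every Hif1a and Egln1 library. Its libraries had 71.8, 110.2, 38.3, 80.05 and 148 CPM in HTB and 143, 216, 130.1, 188 and 307 CPM in LTB. HTB replicate 5 overlapped with LTB replicates 1 and 3, and the other HTB libraries were lower than all LTB libraries. The log2 fold change was -1.13 ± 0.34, with an edgeR adjusted p of 0.0556. It passed by DESeq2 (adjusted p = 0.00521), by limma voom (0.0460), without HTB replicate 2 (0.0372) or HTB replicate 5 (0.0353) and without HTB replicate 2 and LTB replicate 1 together (0.0299), and its adjusted p ranged from 0.00314 to 0.121. The authors' deposited table lists Bnip3 with a log2 fold change of -1.13 and a q of 0.00614. The antisense gene Gm45507 covers 22.3% of the exon bases of Bnip3.

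Adm (11535) encodes adrenomedullin, a vasodilator peptide. It was the least abundant of the 10 genes per kilobase, with 26 to 97 reads per library, at 1.275, 4.025, 0.952, 1.52 and 2.09 CPM in HTB and 1.02, 1.67, 1.58, 3.02 and 2.45 CPM in LTB. HTB replicate 2, the library rich in fat and muscle transcripts, was the highest, and the groups overlapped throughout. The log2 fold change was 0.02 ± 0.41 (edgeR adjusted p = 0.986), with a 95% interval from -0.90 to 0.93. Changes of up to about that size in either direction could not be told from 0 at this spread. Its sign was negative in 8 of 19 alternatives, among them -0.41 without HTB replicate 2.

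**Figure D4:**
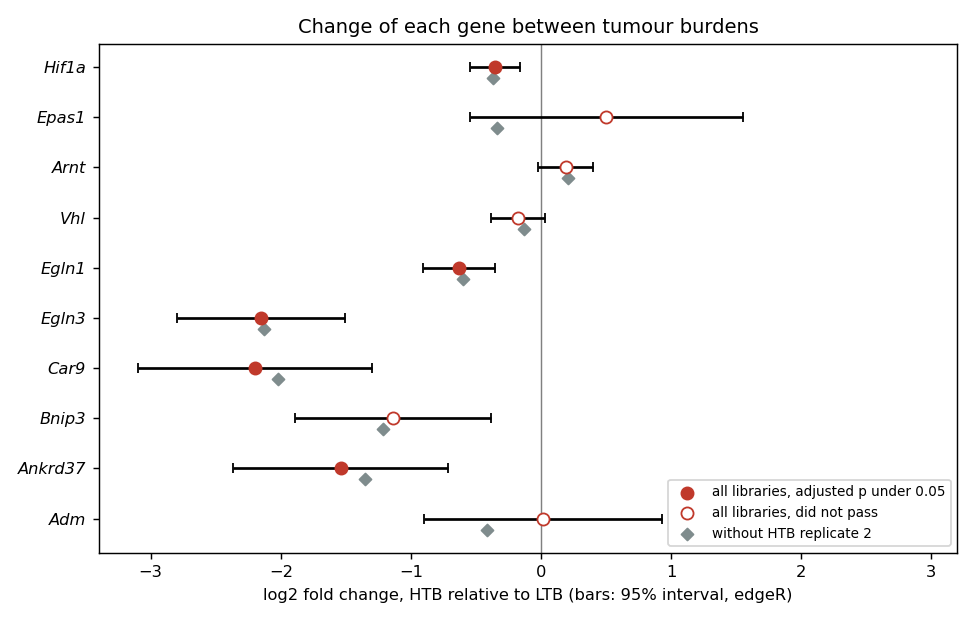
Log2 fold change of each gene in HTB relative to LTB (circles, with the unadjusted 95% interval of the edgeR fit), filled where the adjusted p was under 0.05, and the value without HTB replicate 2 (grey diamonds). Leaving that library out moves Epas1 from 0.50 to -0.34 and Adm from 0.02 to -0.41, while Egln3 goes from -2.15 to -2.13 and Car9 from -2.20 to -2.02.

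Counting separation alone, 5 of the 10 genes had all HTB libraries below all LTB libraries and 0 the reverse, where 7.06% of all genes tested had the first pattern and 4.68% the second. Single libraries held the extreme values of several genes. LTB replicate 5 had the highest value of all 10 libraries in 6 genes (Vhl, Egln1, Egln3, Car9, Bnip3 and Ankrd37). HTB replicate 3 had the lowest in 4 (Egln1, Egln3, Bnip3 and Adm) and HTB replicate 2 in 3 (Vhl, Car9 and Ankrd37). Within HTB, replicate 5 was the highest in 5 genes.

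The order of levels per kilobase of exon in LTB was Bnip3 (86.9 CPM), Egln1 (35.3), Hif1a (30.0), Vhl (12.4), Arnt (11.6), Ankrd37 (8.56), Egln3 (7.82), Car9 (6.48), Epas1 (4.50) and Adm (1.20). The ranges of Egln1 and Hif1a overlapped, as did those of each neighbouring pair from Vhl down to Epas1. Bnip3 lay above all others and Adm below all others with no overlap. In HTB the means of Hif1a (23.4) and Egln1 (22.8) were close and their ranges overlapped. The mean of Epas1 in HTB (6.37) was above those of Ankrd37 (2.94), Egln3 (1.76) and Car9 (1.41). Without HTB replicate 2, Epas1 (3.56) and Ankrd37 (3.35) were close and their ranges overlapped, while the lowest Epas1 library, at 3.10, exceeded the highest Egln3 and Car9 libraries, at 2.33 and 2.37.

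Many other targets of the pathway were lower in HTB. Of 35 further HIF targets 34 were tested, and 16 were lower and 0 higher in HTB by edgeR (20 and 0 at an unadjusted p under 0.05), a share of 47.1% beside the 7.51% of all genes. DESeq2 called 17 lower and limma voom 16, and neither called any higher. The median log2 fold change was -0.69, and 33 of the 34 were negative. The 4 of smallest p were Ak4, a mitochondrial adenylate kinase (14.7 ± 1.97 CPM in HTB against 35.1 ± 4.43 in LTB, log2 fold change -1.26 ± 0.12, edgeR adjusted p = 5.93e-04), the lactate exporter gene Slc16a3 (33.9 ± 6.73 against 104 ± 23.7 CPM; -1.62 ± 0.18, adjusted p = 9.35e-04), P4ha2 and Pgam1. P4ha2, which hydroxylates collagen, ran from 11.1 to 20.5 CPM in HTB and from 35.9 to 56.2 in LTB, and the glycolytic enzyme gene Pgam1 from 305 to 425 and from 513 to 673 CPM. None of these 4, named for their small p, overlapped between the groups. Of the 34 tested, 12 had all HTB libraries below all LTB libraries and 0 the reverse. Of all genes tested, 7.06% and 4.68% did.

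Of the 18 targets that did not pass, some were high in HTB replicate 2 and low in the other HTB libraries. Aldoa, a glycolytic enzyme gene, was at 2383 CPM there, where the remaining HTB libraries had 423 to 890 CPM and the LTB libraries 971 to 1388 CPM. The hexokinase gene Hk2 was at 119 CPM there, at 37.6 to 48.3 CPM in the rest of HTB and at 82.4 to 106 CPM in LTB. Without that library 23 of the targets were lower and 0 higher, against 12.7% of all genes lower in the same fit. Among those that joined were Hk2 (-1.17 ± 0.10, edgeR adjusted p = 5.12e-04), Pfkfb3, Pfkfb4, Aldoa, Tfrc and Gys1. Bnip3l, the closest relative of Bnip3, did not pass, at 199 ± 25.7 CPM in HTB and 202 ± 44.2 CPM in LTB (log2 fold change -0.02 ± 0.15, edgeR adjusted p = 0.941). The ratio of Bnip3 to Bnip3l was 0.211 to 0.646 in HTB and 0.740 to 1.19 in LTB. It follows from the levels of both genes and is a description with no test.

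**Figure D5:**
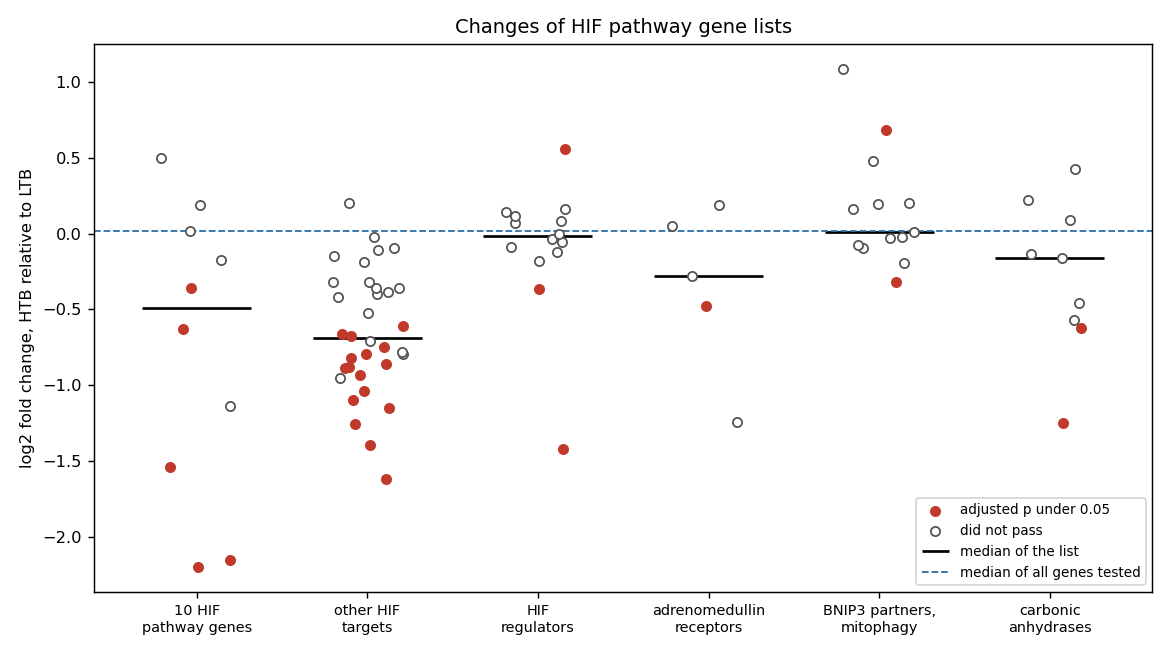
Log2 fold change in HTB relative to LTB of each tested gene of 6 lists (red, adjusted p under 0.05; open, did not pass), with the median of each list as a black line and that of all genes tested as a dashed line. The other HIF targets centre at -0.69 and the HIF regulators at -0.02.

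Of 16 regulators of HIF alpha 14 were tested, 2 were lower and 1 higher, where 7.51% and 3.91% of all genes were, and the median was -0.02. Counts this small are near the shares of all genes. Arnt2, a paralogue of Arnt, was low in all libraries and averaged 1.05 ± 0.42 CPM in HTB and 2.82 ± 0.27 in LTB (log2 -1.42 ± 0.26, edgeR adjusted p = 0.00853). Siah2, a ubiquitin ligase for the hydroxylases, fell by 0.37 ± 0.09 on the log2 scale (edgeR adjusted p = 0.0239), but its adjusted p was 0.0505 without HTB replicate 3. Cited2, which competes with HIF alpha for the coactivators EP300 and CREBBP, rose from 74.7 ± 11.5 to 110.2 ± 8.82 CPM (0.56 ± 0.11 on the log2 scale, edgeR adjusted p = 0.00972). All 5 HTB libraries of Cited2, at 101 to 122 CPM, were above all LTB libraries, at 60.2 to 84.1 CPM. Without HTB replicate 2 the higher genes numbered 3, with Ep300 (0.23 ± 0.07) and Siah1a (0.25 ± 0.07) joining Cited2, in a fit where 9.77% of all genes were higher. Hif3a and P4htm were too low to test.

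The partners of single members were then examined. Of the 5 genes of adrenomedullin receptors, 1 was lower and 0 higher by edgeR, by DESeq2 and by limma voom (2 and 0 at an unadjusted p under 0.05). By edgeR 7.51% of all genes were lower. The lower gene was the scavenging receptor gene Ackr3 (71.0 ± 12.8 against 98.7 ± 10.4 CPM, log2 -0.48 ± 0.12, edgeR adjusted p = 0.0347). This call was lost without HTB replicate 3 or 4 and without LTB replicate 1, 3, 4 or 5, with adjusted p values of up to 0.0775. The receptor gene Calcrl stood at 0.19 ± 0.17 and its partners Ramp3 and Ramp1 at -1.24 ± 0.44 and -0.28 ± 0.33, with edgeR adjusted p of 0.487, 0.0944 and 0.601. Ramp3 passed without HTB replicate 5 (-1.76, adjusted p = 0.0223).

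Among 13 genes of mitophagy and of BCL2 proteins that BNIP3 binds, 1 was higher and 1 lower, near the 3.91% and 7.51% of all genes. Pink1, the kinase that marks damaged mitochondria, rose by 0.68 ± 0.14 on the log2 scale (114 ± 9.71 CPM in HTB, 71.1 ± 15.8 in LTB, edgeR adjusted p = 0.0155), with every HTB library above every LTB library. The survival gene Bcl2l1 fell by 0.32 ± 0.09 on the log2 scale (edgeR adjusted p = 0.0380), a call lost with no filter on low counts (0.0556) and without HTB replicate 1, 3, 4 or 5 or LTB replicate 1, 3, 4 or 5, in a range of 0.0103 to 0.0794. Map1lc3b and Fundc1, which act in autophagosome formation and mitophagy, stood at 0.20 ± 0.09 and 0.16 ± 0.08 (edgeR adjusted p of 0.165 and 0.179).

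Of the 15 other carbonic anhydrase genes 9 were tested, and 2 were lower and 0 higher in HTB by edgeR, beside 7.51% and 3.91% of all genes. At an unadjusted p under 0.05 the counts were 4 and 0. The 2 that passed by edgeR both encode cytosolic enzymes. Car13 averaged 35.2 ± 4.73 CPM in HTB and 54.2 ± 3.98 in LTB (log2 -0.62 ± 0.09, edgeR adjusted p = 0.00387) and Car2 4.75 ± 1.63 and 11.3 ± 4.54 CPM (-1.25 ± 0.32, adjusted p = 0.0322). Car2 lost its call without HTB replicate 3, 4 or 5 and without LTB replicate 1 or 4, with an adjusted p of up to 0.0805. Car7 and Car15 stood at -0.57 ± 0.21 and -0.45 ± 0.18 (edgeR adjusted p of 0.102 and 0.127), and Car7 passed without HTB replicate 2 (-0.72, adjusted p = 0.0206), as did Car4, so that 4 of the genes were then lower, beside 12.7% of all genes. Car12, the other carbonic anhydrase known as a HIF target, was too low to test, at 0.166 and 0.571 CPM. Car3 did not pass the filter on low counts either, at 2129 CPM in HTB replicate 2 and at most 10.0 CPM elsewhere.

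Genes with the most similar course over the 10 libraries were sought among 11788 genes, by the root mean square difference of log2(CPM + 1) after centring each gene on its mean. Nearest to Hif1a were Mgat4a, a Golgi glycosyltransferase (0.03), Actr3, a subunit of the actin-nucleating ARP complex (0.06), and the phosphatase gene Ptpre (0.06). Nearest to Car9 were Egln3 (0.32), the chemokine gene Ccl22 (0.34) and LOC101055672 (0.38). Nearest to Epas1 were Spns2 (0.12), a lipid transporter of endothelium, Rbpms (0.13) and Rnf144a (0.14), all highest in HTB replicate 2. Adm had Car5b (0.19), Card10 (0.21) and the Notch ligand gene Dll4 (0.23) nearest, and these were also highest in HTB replicate 2. All libraries of a group enter this measure, so it is also small for any gene that differs alike between the groups.

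Macrophage markers were 3 of 8 lower and 0 higher in HTB (4 and 0 at an unadjusted p under 0.05). Of all genes tested 7.51% were lower and 3.91% higher by edgeR. The count of lower macrophage markers was 2 to 4 when single libraries were left out. Cd68 (edgeR adjusted p = 0.0496) lost its call without HTB replicate 2 (0.0519). The other lower markers were Itgam and Lyz2, while Adgre1, Csf1r, Mrc1, C1qa and C1qb did not pass. The macrophage sum ran from 652 to 1123 CPM among HTB and from 1077 to 2144 among LTB libraries. Within it, Lyz2 alone averaged 310 CPM in HTB and 689 CPM in LTB. T cell markers were 4 of 6 lower and 0 higher, with sums of 14.2 to 38.0 and 36.7 to 167 CPM. LTB replicate 1 had the highest sum of both lists, and the next T cell sum in LTB was 79.5 CPM. The count of lower T cell markers was 1 without HTB replicate 3, 4 or 5 and 2 without LTB replicate 3. It was 6 by DESeq2, without HTB replicate 2 and without LTB replicate 5. DESeq2 called 1426 of all genes lower, where edgeR called 1011. Without HTB replicate 2, 12.7% of all genes were lower and 9.77% higher by edgeR. Of 6 fibroblast markers 0 passed edgeR's test (0 lower and 1 higher at an unadjusted p under 0.05, 1 higher by DESeq2 and 0 by limma voom). Without HTB replicate 2, Pdgfra passed as higher (0.78 ± 0.18, edgeR adjusted p = 0.0158), and with LTB replicate 1 left out too the count was 2. Over all libraries the fibroblast sums were 6829 to 10506 and 5415 to 8000 CPM. No macrophage, T cell or fibroblast marker was at 0 in every library. The part of these cells in the lower HIF target levels was not tested.

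In GRCm38 the deposited table places Hif1a on chromosome 12 from 73901324 to 73947554, Egln3 on 12 from 54178981 to 54203874, Egln1 on 8 from 124908586 to 124949319, Ankrd37 on 8 from 45996902 to 46000823, Car9 on 4 from 43507026 to 43513729 and Bnip3 on 7 from 138890836 to 138909506. Epas1 lies on chromosome 17 from 86753864 to 86833410, Arnt on 3 from 95434368 to 95497240, Vhl on 6 from 113623972 to 113631923 and Adm on 7 from 110626281 to 110639358. Each span is that of a gene with its introns. The table gives the plus strand for Bnip3 and Ankrd37, where GENCODE M21 and the RefSeq promoter table give the minus strand.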

How the data were processed

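Per the labels' protocols, total RNA came from a column purification and was made into SMARTer mRNA libraries. The genome build was GRCm38 (mm10), per the submitters' processing notes. Which aligner, counter and counting strand were used is not given in the sources used here. The deposited table holds the authors' estimated counts, unscaled, of which 86.4% were whole (within 1e-09) and which were all rounded. It also holds the authors' own log2 fold change, with p-values and q-values from DESeq2 per the file headers. A line naming no gene was dropped. Library totals ran from 23070917 to 27185168 estimated reads.

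Genes were tested by quasi-likelihood in edgeR (edgeR 4.0.16, limma 3.58.1 and DESeq2 1.42.0 in R 4.3.3), with TMM factors and the filterByExpr filter, fitted to group over the 10 libraries. Levels per kilobase use exon lengths of GENCODE M21. Motifs were searched in the RefSeq promoter table of GRCm38.p6. Alternatives were other scalings, tests and filters, unrounded counts, a replicate block and leaving out libraries.

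The members and lists were chosen with earlier results of these data known. Named were all members, the 4 genes of smallest p in each of 5 further lists, and the 3 genes nearest in course to Hif1a, Epas1, Car9 and Adm. Named after their values were seen were Aldoa, Hk2, Bnip3l, Cdh1, Car12, Car3, Hif3a, P4htm, the low keratin genes, Epcam and Cldn7. So were the muscle markers Acta1, Tnnt3, Atp2a1 and Mylpf and the single macrophage markers. The genes gained without HTB replicate 2 (Ep300, Siah1a, Car4, Tek and Pdgfra among them) were also named in this way. A search of protein motifs was planned and not run. Results for some genes of the lists are not reported here.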

Additional observations from a re-analysis of the deposited data

Results flagged for a closer look

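In each group of 5 libraries, the gap between the most extreme library and its neighbour was set against the range of the group, for the 10 genes and the 2 ratios. Of these 24 sets 4 had a library far from the others, and chance alone gives about 1 in 20 for a single set. The sets are not independent, since the Epas1 value of HTB replicate 2 enters a gene and a ratio that were both flagged. Epas1 was at 98.6 CPM in HTB replicate 2, where the next HTB library was at 22.8 CPM. The log2 ratio of Epas1 to Hif1a was -0.55 in the same library, with the next at -2.51. Arnt was at 117 CPM in HTB replicate 5, above 104 CPM in the next library. Vhl was at 45.4 CPM in LTB replicate 5, above 36.8 CPM in the next.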

How the results depend on the processing

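Egln1, Egln3 and Car9 passed, lower in HTB, in all 19 alternatives. The count of all genes that passed was 1537, with 2510 by DESeq2, 971 with the replicate number as a block, 2908 without HTB replicate 2 and LTB replicate 1 together, and 736 to 3040 when single libraries were left out (3040 with HTB replicate 2 left out, 736, 742 and 931 with HTB replicate 3, 4 or 5 left out, and 940 with LTB replicate 3 left out). The split of higher and lower calls was 526 and 1011, 1084 and 1426 by DESeq2, and 1324 and 1716 without HTB replicate 2. The count of members lower in HTB was 3 to 6 when single libraries were left out, and 3 without HTB replicate 3. The difference in the ratio of Epas1 to endothelial markers was -0.34 to -0.12 when single libraries were left out. Its lowest exact permutation p, 0.0317 without HTB replicate 2, came to 0.0635 when adjusted over the 2 ratios. With 2 libraries left out together it was -0.28 (exact permutation p = 0.0571). The difference in the ratio of Epas1 to Hif1a was 0.05 to 0.66.

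The sign of Epas1 turned without HTB replicate 2 (-0.34) and without HTB replicate 2 and LTB replicate 1 together (-0.23). That of Adm turned to -0.0858 with limma voom, -0.0744 with the replicate block, -0.41 and -0.0069 without HTB replicate 2 or 5, -0.15, -0.0390 and -0.0506 without LTB replicate 1, 2 or 3, and -0.58 without HTB replicate 2 and LTB replicate 1 together. Epas1 got no adjusted p from DESeq2. With single libraries left out Epas1 ran from -0.34 to 0.68 and Adm from -0.41 to 0.23. The cause of these turns was not tested.

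Replicate numbers did not pair the libraries: deviations of same-numbered libraries correlated at -0.03 to 0.10. With the replicate block, Hif1a did not pass (-0.35, adjusted p = 0.0854), and Siah2 (0.0703) and Bcl2l1 (0.0793) did not either, while Bnip3 did (0.00314). Under the block the difference in the log2 ratio of Epas1 to the endothelial sum was again -0.19, which averaging over pairs fixes in advance. Its p of 0.438 (exact sign-flip test over the pairs) could not have come under 0.05 with so few pairs. Adm had 26 to 97 reads per library.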
